A study of Mus musculus with 7 samples.

Results

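A set of 10 genes that mark the stem cell compartments of the mouse hair follicle was followed in ribosome profiling libraries of wild-type (WT) and Pelota knockout (KO) epidermis. They were chosen by symbol: Cd34, Nfatc1, Sox9, Lhx2 and Fgf18 for the bulge, Lgr5 for the lower bulge and the germ, Lrig1, Lgr6 and Plet1 for the isthmus and junctional zone, and Krt79 for the infundibulum. All 10 were among the 13167 transcripts of the deposited count table, and 0 of their symbols were repeated. Ribosome profiling sequences the piece of mRNA covered by a ribosome, so a count over a coding region measures how many ribosomes sat on it. The KO group was 2 libraries of primary mouse epidermis with a transgenic knockout of Pelo, which encodes the ribosome rescue factor Pelota, and the WT group was 2 libraries of primary epidermis labelled wild type. The labels do not give the strain, age, sex or hair cycle stage, the part of Pelo removed, the cells in which it was removed, or whether replicates came from separate animals, so p-values reflect the spread between libraries only. The 3 RNA-seq libraries of the series were not analysed here, so more mRNA and more ribosomes per mRNA cannot be told apart, and in bulk libraries neither can fewer cells of a type and less RNA per cell.

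The hair follicle is renewed from several stem cell pools stacked along its length. Bulge cells are slow cycling and, with the hair germ beneath them, feed the next growth phase; bone morphogenetic protein (BMP) and fibroblast growth factor (FGF) signals hold them at rest and Wnt signals release them. The isthmus and junctional zone above the bulge supply the sebaceous gland and upper follicle, and the infundibulum is the funnel that opens at the skin surface. Pelota is known to split ribosomes stalled on mRNA, together with the GTPase Hbs1l.

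Promoters are shown for the pair of markers with more footprints in KO (Plet1, Krt79) and the pair with the largest fitted falls (Cd34, Lgr6), because these pairs moved in opposite directions. Promoters from RefSeq (GRCm38.p6) were searched for 7 of the 10 markers, and those of 3 (Lgr5, Sox9, Nfatc1) were not searched. Each line gives the 150 bases before the annotated start, 5′ to 3′ on the gene's strand, in lower case with matches to a searched motif in capitals: Plet1 is chr9:50494375-50494524 (plus strand), Krt79 chr15:101940325-101940474 (minus strand), Cd34 chr1:194938671-194938820 (plus strand) and Lgr6 chr1:135105277-135105426 (minus strand).
Plet1: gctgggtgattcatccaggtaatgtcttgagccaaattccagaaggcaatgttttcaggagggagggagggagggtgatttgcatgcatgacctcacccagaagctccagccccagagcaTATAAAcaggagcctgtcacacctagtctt
Krt79: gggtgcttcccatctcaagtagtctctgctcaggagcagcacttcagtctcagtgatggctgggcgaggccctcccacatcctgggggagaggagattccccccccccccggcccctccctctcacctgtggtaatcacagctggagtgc
Cd34: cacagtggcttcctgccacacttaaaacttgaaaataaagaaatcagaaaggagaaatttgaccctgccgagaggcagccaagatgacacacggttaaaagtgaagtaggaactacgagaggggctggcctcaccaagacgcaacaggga
Lgr6: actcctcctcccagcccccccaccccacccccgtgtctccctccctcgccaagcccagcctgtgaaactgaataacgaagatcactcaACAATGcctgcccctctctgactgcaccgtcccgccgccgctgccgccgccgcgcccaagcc
The 6 motifs searched on both strands of the 250 bases before the start were the TATA box TATAAA, the CCAAT box CCAAT, the NFAT core GGAAAA, the TCF/LEF core CTTTGA, the LHX homeodomain core TAATTA and the SOX core ACAATG. Plet1 held TATAAA with its first base 30 bases upstream of the start, and TATAAA was in 12.4% of 32851 promoters of this length. Lgr6 held ACAATG at 62 bases, a motif in 10.7% of promoters. Outside the printed stretches, Plet1 held CCAAT on the minus strand at 183 bases and Lrig1 on the plus strand at 179 bases (33.8% of promoters), and 1 of the Lhx2 promoters held GGAAAA on the minus strand at 139 bases (20.4% of promoters). Neither Krt79 nor Cd34 held any of the 6, and CTTTGA (13.8% of promoters) and TAATTA (4.84%) were found in none of the 7 markers. A match is a string of letters in this window and no measure of binding.

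Coding footprints numbered 4925876 and 4521561 in the KO libraries (replicates 1 and 2) and 5282276 and 4221675 in the WT libraries, and the median listed transcript held 90 to 112 of them. The table lists a transcript only above 0.01 footprints per nt of coding region; an unlisted value is an upper limit, not 0. Counts were tested with edgeR's quasi-likelihood test over 10953 transcripts listed in all 4 libraries, adjusted by Benjamini-Hochberg and called at 0.05; log2 changes are KO minus WT, and CPM are counts scaled to a common library size with TMM factors. Of all transcripts tested, 2184 (19.9%) were higher and 2093 (19.1%) lower in KO; with library totals as the scale the split was 1501 higher and 3023 lower, and the median of all changes moved by −0.176 (log2). Pelo itself (uc007ryb.2) had 24 and 21 footprints in the KO libraries and 101 and 61 in the WT libraries, a 3.14-fold fall (log2 −1.65, SE 0.245, adjusted p = 0.000807).

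The libraries held RNA of cells other than the follicle stem cells, hair shaft and root sheath cells of the follicle among them. The share of suprabasal keratinocyte markers in the coding total was 7.48% and 6.80% in KO and 3.42% and 2.85% in WT (8 of 10 tested rose), that of basal markers 2.50% and 2.25% against 1.35% and 1.49% (4 of 12 rose, 2 fell), and that of hair shaft and root sheath markers 0.687% and 0.313% against 0.0517% and 0.0453% (8 of 10 tested rose). Dermal fibroblast markers went the other way, at 3.98% and 4.54% against 8.43% and 12.6% (5 of 10 fell), as did sebaceous markers, at 0.0671% and 0.121% against 0.372% and 0.359% (7 of 9 tested fell), adipocyte markers, at 0.0546% and 0.0373% against 0.157% and 0.0958% (6 of 7 fell), and macrophage and Langerhans cell markers, at 0.234% and 0.255% against 0.521% and 0.528% (4 of 8 fell). The smaller lists were melanocytes (5 of 7 tested rose, 2 fell; 0.0408% and 0.0244% against 0.00895% and 0.0111%), T cells (2 of 5 tested fell; 0.0211% and 0.0214% against 0.0328% and 0.0272%) and skeletal muscle (1 of 2 tested fell; 0.0400% and 0.0435% against 0.167% and 0.0438%, the high value being WT replicate 1). Beside these counts of calls, 19.9% of all transcripts tested were called higher and 19.1% lower. The marker shares stand beside the follicle values below, and their part in any of them was not tested.

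Of the 10 follicle markers, 8 were listed in all 4 libraries and tested. Both Krt79 and Plet1 rose, 4 fell (Cd34, Lgr6, Nfatc1, Lgr5), 2 did not pass the test (Sox9, Lrig1), and 2 (Lhx2, Fgf18) were listed in both WT libraries and neither KO library. Over all transcripts tested, 19.9% were called higher and 19.1% lower. The genotypes did not overlap for 6 of the 8, against 71.9% of all transcripts tested, so that count is near its background. Being listed in both WT and neither KO library befell 548 of 13167 transcripts (4.16%). The changes of the 8 tested markers ran from a 4.77-fold rise of Krt79 to a 2.56-fold fall of Cd34, and Lhx2 and Fgf18 were lower in KO by at least 4.6-fold and 6.33-fold.

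**Figure D1:**
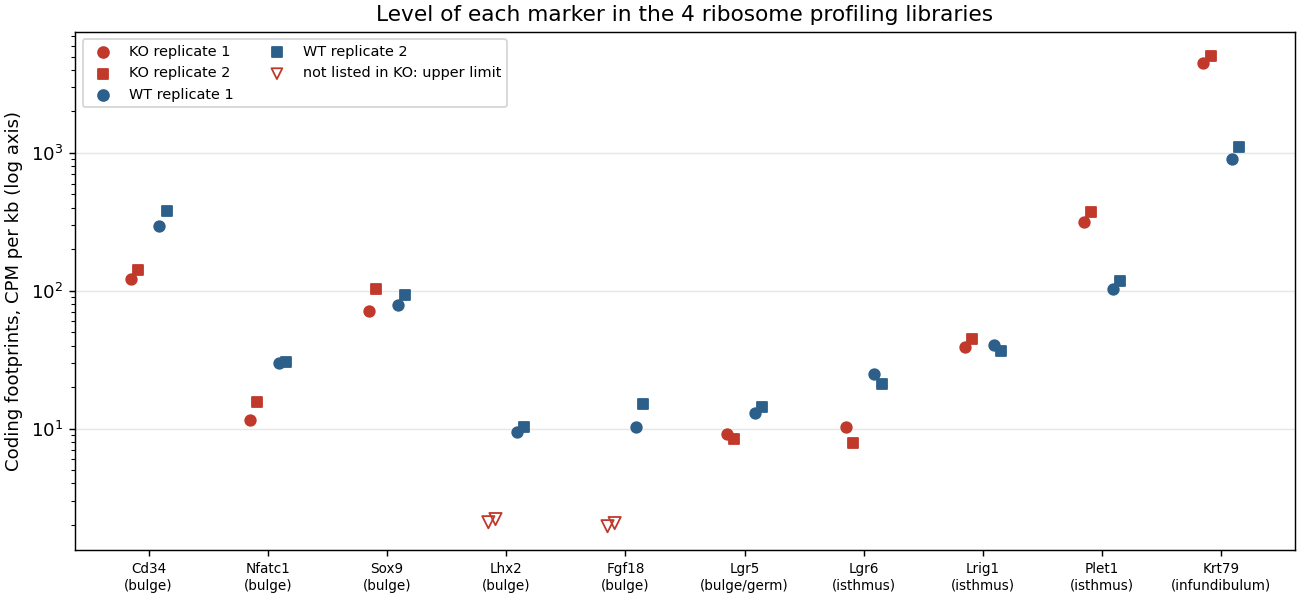
Level of each of the 10 markers in the 4 libraries, as coding footprints in CPM per kb of coding region on a log axis, with circles for replicate 1, squares for replicate 2 and open triangles for the upper limit of unlisted values. KO points (red) lie below WT points (blue) for Cd34, Nfatc1, Lhx2, Fgf18, Lgr5 and Lgr6, among them for Sox9 and Lrig1, and above them for Plet1 and Krt79.

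In the bulge, footprints on the surface sialomucin and the calcineurin-responsive transcription factor that define its outer cells were lower in KO, and those on Sox9 were not distinguishable. Cd34 (uc007eeq.2, 1089 coding nt), the classical surface marker of bulge cells in mouse, had 602 and 659 footprints in KO and 1824 and 1788 in WT, or 132.8 and 153.2 against 320.9 and 412.7 CPM. Both WT libraries lay above both KO libraries, and the fall was 2.56-fold (log2 −1.36, SE 0.148, 95% interval −1.69 to −1.03, adjusted p = 0.000125). Cd34 is also made by blood vessel, fibroblast and fat precursor cells. Of 8 endothelial markers tested, edgeR called 0 (1 at an unadjusted p under 0.05, and 0 with DESeq2), with all 8 values below 0 and a median of −0.274; their share of footprints was 0.0290% and 0.0314% in KO and 0.0386% and 0.0409% in WT. None of the 10 fibroblast markers had a value above 0 either, and their median was −0.401, with the lowest at −1.47. Of 7 adipocyte markers tested, 6 fell and 1 did not pass, with a median of −1.26, beside 19.1% lower over all transcripts tested. How much of the Cd34 footprints came from those cells was not tested.

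Nfatc1 (uc012bfk.1, 2718 nt), which keeps bulge cells quiescent, had 142 and 181 footprints in KO and 462 and 360 in WT. In CPM that was 36.7 ± 7.60 against 82.2 ± 1.29 (mean ± SD, n = 2 per genotype), with no overlap, a 2.24-fold fall (log2 −1.16, SE 0.154, interval −1.51 to −0.82, adjusted p = 0.000415). Sox9 (uc007med.2, 1464 nt), a transcription factor of bulge and outer root sheath cells, had 470 and 646 footprints in KO and 658 and 592 in WT. Its CPM of 103.7 and 150.2 in KO bracketed the 115.7 and 136.6 in WT, and the change of 0.01 (SE 0.176, interval −0.39 to 0.40, adjusted p = 0.973) has an interval on both sides of 0. The sign of that value turned with the scaling and with the library left out, reaching −0.27 without KO replicate 2 and 0.26 without KO replicate 1.

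The remaining bulge markers were too low to be listed in KO. Lhx2 (uc008jnl.1, 1161 nt), a LIM homeodomain factor that maintains bulge cells, had 62 and 52 footprints in WT and at most 11 in each KO library, where it was not listed. WT held 11.45 ± 0.77 CPM, at least 4.6-fold more than KO (at least 4.27-fold from the lowest WT value to the highest KO limit). Fgf18 (uc007ikc.2, 564 nt), a secreted growth factor made by the resting bulge, had 33 and 37 footprints in WT and at most 5 in each KO library. Its 5.81 and 8.54 CPM in WT were at least 6.33-fold more than in KO on average, and at least 4.99-fold between the nearest libraries. Neither gene has a measured KO value, so neither entered the main test. With unlisted values at their largest possible count, edgeR gave −2.16 for Lhx2 and −2.59 for Fgf18. Those KO counts are limits and not measurements. The same limit was filled into both KO libraries, so no spread between them was measured and no p-value is given.

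Both R-spondin receptors among the markers carried fewer footprints in KO. Lgr5 (uc007hbi.1, 2664 nt), a receptor for R-spondins that marks the lower bulge and germ, had 111 and 96 footprints in KO and 197 and 166 in WT, or 24.5 and 22.3 against 34.7 and 38.3 CPM. The genotypes did not overlap, and the fall of 1.55-fold was the smallest among the 4 called (log2 −0.64, SE 0.149, interval −0.97 to −0.30, adjusted p = 0.00873); with DESeq2 it did not pass (−0.63, adjusted p = 0.071). Its relative Lgr6 (uc007csq.1, 2844 nt), found in the isthmus and also in scattered cells of the interfollicular epidermis, had 132 and 96 footprints in KO and 404 and 258 in WT. CPM were 29.1 and 22.3 in KO against 71.1 and 59.6 in WT, a 2.54-fold fall with no overlap (log2 −1.34, SE 0.166, interval −1.72 to −0.97, adjusted p = 0.000269).

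The other isthmus markers did not follow Lgr6. Lrig1 (uc009czu.1, 3216 nt), a membrane protein that damps epidermal growth factor receptor signalling and marks junctional zone stem cells, had 565 and 619 footprints in KO and 741 and 513 in WT. Its 124.6 and 143.9 CPM in KO overlapped 130.3 and 118.4 CPM in WT, with a change of 0.11 (SE 0.126, interval −0.17 to 0.39, adjusted p = 0.525), which turned to −0.07 with library totals as the scale. Plet1 (uc009pjo.1, 654 nt), a surface antigen of the upper isthmus and infundibulum, had 931 and 1057 footprints in KO and 382 and 332 in WT. In CPM that was 225.5 ± 28.5 against 71.9 ± 6.67 (mean ± SD, n = 2 per genotype), a 3.14-fold rise (log2 1.65, SE 0.137, interval 1.34 to 1.96, adjusted p = 2.84e-05).

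Krt79 (uc007xug.1, 1536 nt), a type II keratin of the cells that line the infundibulum and the upper part of the follicle canal, was the most abundant marker in each library and rose the most. It had 31124 and 33513 footprints in KO and 7850 and 7325 in WT, or 6866 and 7790 against 1381 and 1691 CPM. Every KO value was above every WT value, and the rise was 4.77-fold (log2 2.26, SE 0.163, interval 1.89 to 2.62, adjusted p = 1.6e-05). The sources used here do not say how reads shared between related keratins were assigned. Its close relatives Krt78 (−0.17, adjusted p = 0.247) and Krt80 (0.11, adjusted p = 0.588) did not pass the test, and Krt77 was lower, with 36735 and 25549 footprints in KO and 74140 and 41810 in WT (−0.69, SE 0.209, adjusted p = 0.0266), a call lost with unlisted values at 0 (adjusted p = 0.0648) and without KO replicate 2 (adjusted p = 0.224) or WT replicate 1 (adjusted p = 0.0976). Suprabasal keratinocyte markers rose with Krt79, by a median of 1.30 over the 10 tested; what part they have in its rise was not tested.

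**Figure D2:**
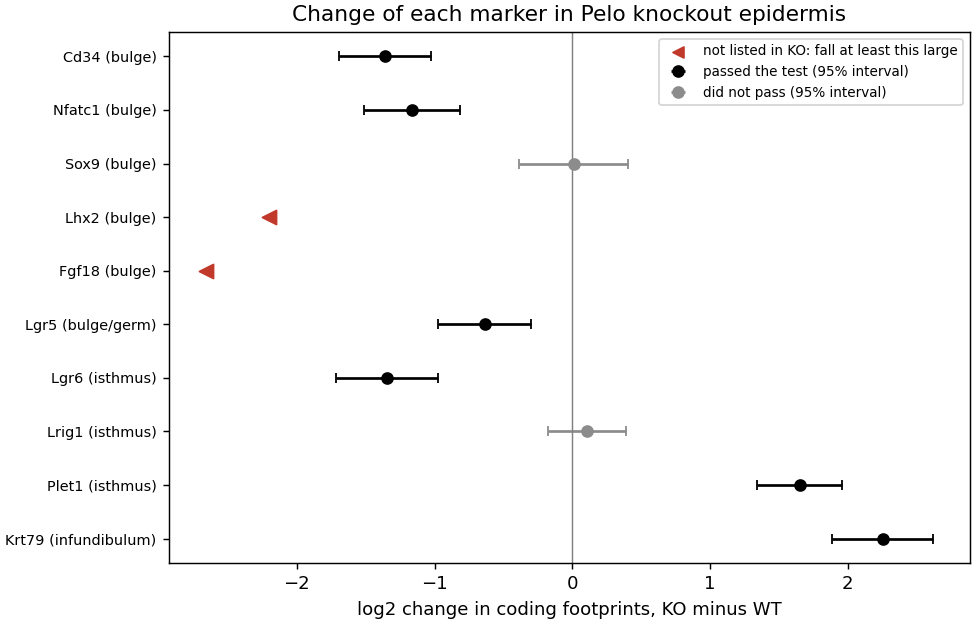
Change of each marker in coding footprints, KO minus WT on the log2 scale, with 95% intervals; black points passed the test, grey points did not, and red triangles are lower limits of the fall for unlisted genes. Krt79 at 2.26 and Plet1 at 1.65 lie right of 0, Sox9 and Lrig1 cross 0, and the other 6 lie left of it.

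Per kb of coding region, the 8 markers listed in every library stood in the same order in both genotypes, except that Cd34 and Plet1 exchanged places. In WT the order was Krt79 (999.8 ± 143 CPM per kb), Cd34 (336.8 ± 59.6), Plet1 (110.0 ± 10.2), Sox9 (86.2 ± 10.1), Lrig1 (38.7 ± 2.63), Nfatc1 (30.2 ± 0.473), Lgr6 (23.0 ± 2.86), Lgr5 (13.7 ± 0.971), Fgf18 (12.7 ± 3.43) and Lhx2 (9.87 ± 0.667). In KO it was Krt79 (4771 ± 425), Plet1 (344.9 ± 43.6), Cd34 (131.3 ± 13.2), Sox9 (86.7 ± 22.5), Lrig1 (41.8 ± 4.23), Nfatc1 (13.5 ± 2.80), Lgr6 (9.04 ± 1.69) and Lgr5 (8.78 ± 0.577), all as mean ± SD with n = 2. Neighbours whose replicates overlapped were Lgr5 and Fgf18, and Fgf18 and Lhx2, in WT, and Lgr6 and Lgr5 in KO. Among listed transcripts ranked by this level, Cd34 went from the percentile 96.9 in WT to 90.0 in KO, Nfatc1 from 67.2 to 42.0 and Lgr6 from 59.1 to 28.8. Lrig1 stood at 73.2 in WT and 73.4 in KO.

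Ratios between markers of the same library do not depend on the scale between libraries, and Lrig1 was taken as the reference because it lies between the extremes. Per coding nt, Krt79 held 115 and 113 times the footprints of Lrig1 in KO and 22.2 and 29.9 times in WT. Plet1 held 8.10 and 8.40 times in KO and 2.54 and 3.18 in WT. Below Lrig1 in level, Lgr6 held 0.264 and 0.175 of it in KO against 0.617 and 0.569 in WT, and Nfatc1 0.297 and 0.346 against 0.738 and 0.830. None of these pairs of values overlapped. In CPM the genotypes did not overlap for 71.9% of all transcripts tested, so non-overlap alone is common here. Sox9 stayed mixed, at 1.83 and 2.29 in KO and 1.95 and 2.54 in WT.

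Genes shifted against each other within the bulge and between compartments. Sox9 held 0.581 and 0.729 of the Cd34 level in KO against 0.268 and 0.246 in WT, although both mark bulge cells. Among isthmus and lower follicle receptors, Lgr6 exceeded Lgr5 1.92-fold and 1.46-fold in WT and was level with it in KO, at 1.11 and 0.937. Plet1 was at 0.349 and 0.309 of Cd34 in WT and at 2.58 and 2.67 times Cd34 in KO, a 7.97-fold shift. Krt79 also outran Plet1, at 14.2 and 13.5 times its level in KO against 8.75 and 9.39 in WT. With 2 libraries per genotype, the smallest two-sided exact permutation p is 0.33, so none of these ratios was tested.

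**Figure D3:**
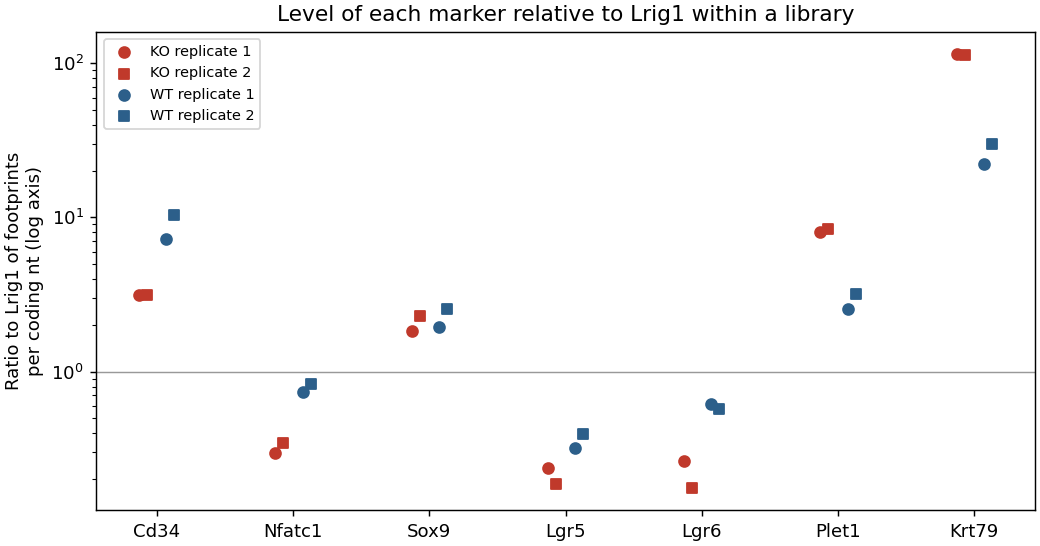
Ratio of each marker to Lrig1 within a library, in footprints per coding nt on a log axis; red is KO, blue is WT, circles are replicate 1 and squares replicate 2, and the grey line marks a ratio of 1. KO lies above WT for Krt79 and Plet1, below it for Cd34, Nfatc1, Lgr5 and Lgr6, and the genotypes interleave for Sox9.

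Summed by compartment, the infundibulum marker Krt79 took 91.3% and 90.9% of the CPM of all listed markers in KO and 62.2% and 64.1% in WT. The listed bulge genes Cd34, Nfatc1 and Sox9 together took 3.56% and 4.03% in KO against 23.3% and 24% in WT, a sum of 267.8 and 345.4 against 517.9 and 632.4 CPM. Cd34 alone held 132.8 and 153.2 CPM of those sums in KO and 320.9 and 412.7 in WT. The isthmus genes summed to 359.2 and 411.9 CPM in KO and 268.6 and 254.6 in WT, with Plet1 as the member that rose, while their share was 4.78% and 4.81% against 12.1% and 9.66%. The shares sum to a fixed total, so the Krt79 rise lowers the others by construction. The CPM were not divided by coding length, and only the WT totals include Lhx2 and Fgf18.

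Footprints outside coding regions are a readout that the choice of markers did not use. For Krt79, the 104 nt 5′ UTR held 56 and 36 footprints in KO and 2 and 1 in WT, or 1.8 and 1.07 per 1000 coding footprints against 0.255 and 0.137. Fitted with TMM within each region, and so relative to the typical shift of all transcripts, the ratio was 4.31-fold higher in KO (log2 2.11, SE 0.782). It did not pass (adjusted p = 0.194 by edgeR over 1618 transcripts, of which 8, or 0.494%, were higher and 11 lower). Its 386 nt 3′ UTR held 24 and 32 footprints in KO and 1 and 3 in WT, or 0.771 and 0.955 per 1000 coding footprints against 0.127 and 0.410. Fitted in the same way, the log2 ratio change was 2.21 (SE 0.679, adjusted p = 0.0562 over 223 transcripts, of which 16, or 7.17%, were higher). Over all transcripts the 3′ UTR ratio was 5.64 and 6.37 in KO and 7.03 and 6.72 in WT per 1000 coding footprints. With transcripts of at least 5 counts admitted, the 3′ UTR ratio of Krt79 passed (2.31, adjusted p = 0.0484). The WT counts behind both Krt79 ratios are 1 to 3 footprints per library.

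Another 71 nt of each transcript belong to none of the 3 annotated regions, and their position is not described. There Krt79 held 1399 and 1588 footprints in KO and 123 and 124 in WT, that is 44.9 and 47.4 per 1000 coding footprints against 15.7 and 16.9. In a comparison added after seeing the data, the ratio was 1.83-fold higher in KO (log2 0.87, SE 0.176, adjusted p = 0.00886), a call made higher for 15 of 2940 transcripts (0.51%). The call was lost without KO replicate 1 (adjusted p = 0.171), WT replicate 1 (0.148) or WT replicate 2 (0.309), with values of 0.81 to 0.97. Over the whole table the same ratio was 45.2 and 45.3 in KO and 26.5 and 25.2 in WT per 1000 coding footprints, and each ratio test is relative to that typical shift. Plet1, which rose as well, did not pass, with 74 and 91 footprints there in KO and 25 and 18 in WT (−0.17, adjusted p = 0.84), nor did Cd34 (0.35, adjusted p = 0.621), Sox9 (−0.07, adjusted p = 0.944) or Lrig1 (−0.55, adjusted p = 0.652).

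The 5′ UTRs of 2 other markers had enough counts for a test. Sox9 held 21 and 23 footprints in its 369 nt 5′ UTR in KO and 21 and 12 in WT, with a ratio change of −0.15 (SE 0.377, adjusted p = 0.888), a sign that turned without KO replicate 2 or WT replicate 1. Lrig1 held 26 and 32 in KO and 17 and 13 in WT over 454 nt, or 46 and 51.7 per 1000 coding footprints against 22.9 and 25.3 (0.29, SE 0.336, adjusted p = 0.701). Across all transcripts these ratios were 15.3 and 17.8 in KO and 11.1 and 10.1 in WT. Cd34, Nfatc1 and Lgr6 had 0 footprints in the 5′ UTR of every library, and in the 3′ UTR no marker other than Krt79 had more than 8 in any library.

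Other genes known from the same compartments were read from lists chosen with earlier results of these data known, so their counts are descriptions. Of 10 further genes of the upper follicle and infundibulum, 10 rose, by 0.54 to 2.06 with a median of 1.72, against −0.0212 over all transcripts tested and 19.9% of them higher. Among the largest rises were those of the simple epithelial keratin Krt7 (88 and 123 footprints in KO, 39 and 19 in WT; 2.06, SE 0.281, adjusted p = 0.000495) and the secreted protease Klk10 (3321 and 3022 against 1202 and 840; 1.82, SE 0.116, adjusted p = 9.1e-06). Only 9 of 10 passed with library totals or without WT replicate 2. The rises of this list ran in the direction of those of Krt79 and Plet1, and suprabasal markers moved with them; their part in it was not tested.

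Among 21 tested genes of 25 listed for the bulge, 11 fell, 2 rose and 8 did not pass, with a median of −0.55, beside 19.1% lower and 19.9% higher over all transcripts tested. Bmp6, on the same list, was listed in both WT libraries (21 and 17 footprints) and neither KO library, where it could hold up to 14. The steepest falls were of the heparin-binding growth factor Ptn (118 and 108 footprints in KO, 584 and 529 in WT; −2.13, SE 0.144, adjusted p = 1.17e-05), the chemokine Cxcl14 (94 and 97 against 465 and 426; −2.05, SE 0.149, adjusted p = 1.6e-05) and the matricellular protein Ctgf (115 and 182 against 538 and 685; −1.90, SE 0.276, adjusted p = 0.000716). The risers were both matrix glycoproteins: Tnc had 1636 and 1295 footprints in KO and 214 and 252 in WT (2.80, SE 0.197, adjusted p = 1.43e-05), and Postn 9296 and 7518 against 3975 and 3541 (1.32, SE 0.140, adjusted p = 0.000105). Ptn, Ctgf, Tnc and Postn are known to be made by dermal cells too, and fibroblast markers were lower in KO; their part was not tested. The count of falls was 8 with DESeq2 and 13 with library totals.

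Of 4 hair germ genes tested, 3 rose, beside 19.9% of all transcripts: the homeobox gene Msx2 (60 and 24 footprints in KO, 21 and 16 in WT; 1.35, SE 0.410, adjusted p = 0.0272), the P-cadherin gene Cdh3 (949 and 751 against 502 and 442; 1.01, SE 0.137, adjusted p = 0.000461) and the ligand Wnt10a (122 and 101 against 90 and 61; 0.75, SE 0.175, adjusted p = 0.00871). The Wnt target and inhibitor Axin2 fell, from 262 and 174 footprints in WT to 117 and 127 in KO (−0.64, SE 0.149, adjusted p = 0.00828). Outside the test, Wnt10b was listed in both WT libraries (24 and 12 footprints) and neither KO library. Each KO library could hold up to 11, so the direction of Wnt10b is not settled. Lef1 was listed only in KO replicate 1 (15 footprints), and an unlisted value of it can be up to 11. Msx2 was 0.60 (adjusted p = 0.274) without KO replicate 1, the library with the largest share of hair shaft footprints, and did not pass without WT replicate 1 (1.34) or WT replicate 2 (1.35) either. Axin2 did not pass without WT replicate 1 (−0.55). With DESeq2, Wnt10a (adjusted p = 0.0534) and Axin2 (adjusted p = 0.0547) did not pass. Hair shaft and root sheath markers rose by a median of 2.50, and their part in the germ values was not tested.

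**Figure D4:**
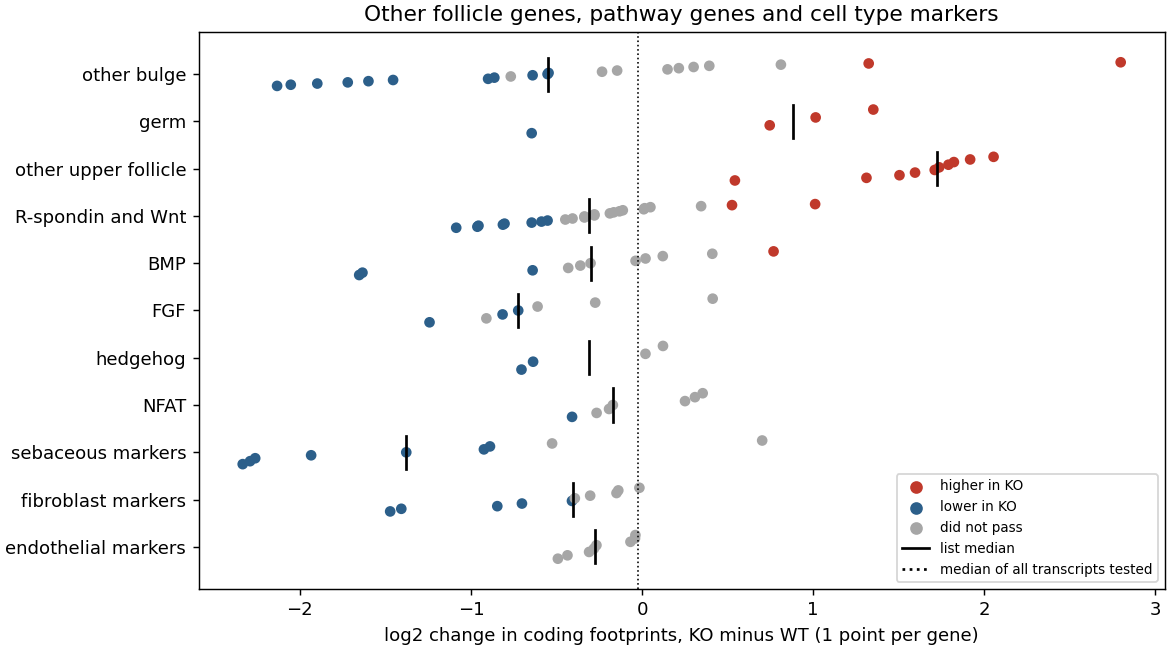
Change of each gene in 11 lists, KO minus WT in log2, 1 point per gene, red for higher, blue for lower and grey for not past the test; the black bar is the list's median and the dotted line the median of all transcripts tested, −0.0212. The 10 other upper follicle genes all lie at 0.54 or above, and the other bulge genes spread from −2.13 to 2.80 around a median of −0.55.

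The pathways in which the markers act were examined next, beginning with R-spondin and Wnt signalling, in which Lgr5 and Lgr6 are receptors. Of 24 tested genes of 32 listed, 8 fell, 2 rose and 14 did not pass, with a median of −0.31, beside 19.1% lower and 19.9% higher over all transcripts. The ligand Rspo3 was listed in both WT libraries (24 and 8 footprints) and neither KO library, where it could hold up to 7, so a fall is not shown. Falls included the third R-spondin receptor, Lgr4 (113 and 92 footprints in KO, 253 and 199 in WT; −0.96, SE 0.146, adjusted p = 0.000917), and the Wnt receptors Fzd8 (−1.09, SE 0.198, adjusted p = 0.00249) and Fzd2 (−0.96, SE 0.166, adjusted p = 0.00192). The ligand Rspo4 (1.01, SE 0.351, adjusted p = 0.0459) and the receptor Fzd6 (0.53, SE 0.144, adjusted p = 0.0179) were the risers. With DESeq2 only 4 fell and neither riser passed (Rspo4 adjusted p = 0.228, Fzd6 adjusted p = 0.0559), and 5 fell without WT replicate 1. Rspo4 also lost its call without KO replicate 2 (0.72), WT replicate 1 (1.37) or WT replicate 2 (0.77). Fzd6 lost its call without KO replicate 1 (0.44) or WT replicate 2 (0.39). With library totals as the scale neither riser passed in edgeR (Rspo4 adjusted p = 0.0956, Fzd6 adjusted p = 0.0993). Of 12 alternatives, Rspo4 lost its call in 7 and Fzd6 in 4.

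For FGF signalling, in which Fgf18 is a ligand, 3 of 7 tested genes fell, and all 3 were receptors: Fgfr2 (302 and 214 footprints in KO, 864 and 534 in WT; −1.24, SE 0.168, adjusted p = 0.000464), Fgfr1 (179 and 175 against 352 and 345; −0.81, SE 0.151, adjusted p = 0.00264) and Fgfr4 (−0.72, SE 0.197, adjusted p = 0.0173). Fgfr4 did not pass without KO replicate 1 (−0.54) or WT replicate 2 (−0.48), or with unlisted values at 0 (adjusted p = 0.0533). The receptor Fgfr3 did not pass (−0.27, SE 0.147, adjusted p = 0.17). The list's median was −0.72, and 19.1% of all transcripts fell. Among 11 BMP pathway genes tested 3 fell and 1 rose, beside 19.1% and 19.9% of all transcripts. Those that fell were the ligand Bmp4 (25 and 15 footprints in KO, 81 and 62 in WT; −1.65, SE 0.265, adjusted p = 0.00124), the BMP antagonist Grem1 (49 and 66 against 201 and 200; −1.63, SE 0.212, adjusted p = 0.000357) and the BMP target Id2 (−0.64, SE 0.187, adjusted p = 0.0233). The riser was the ligand Bmp7 (188 and 198 against 146 and 111; 0.77, SE 0.141, adjusted p = 0.0025). Id2 did not pass with DESeq2 (adjusted p = 0.0787) or without KO replicate 1 (−0.47) or WT replicate 1 (−0.40).

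Of 7 calcineurin and NFAT genes tested around Nfatc1, 1 fell, near the 19.1% of all transcripts: the calcineurin catalytic subunit Ppp3ca (296 and 330 footprints in KO, 502 and 435 in WT; −0.41, SE 0.136, adjusted p = 0.0393), and it did not pass with DESeq2 (adjusted p = 0.164) or without KO replicate 1 (−0.29) or WT replicate 2 (−0.32). The list's median was −0.17. Of 4 hedgehog pathway genes tested, the receptor component Smo (−0.70, SE 0.228, adjusted p = 0.0354) and the transcription factor Gli3 (−0.64, SE 0.191, adjusted p = 0.0262) fell; neither passed with DESeq2 (adjusted p = 0.239 and 0.156). Smo lost the call without any 1 of the 4 libraries, and Gli3 without either KO replicate or without WT replicate 2. The receptor Ptch1 was listed in both WT libraries (65 and 63 footprints) and neither KO library, where it could hold up to 42. Among paralogues of the markers, 12 were tested and 3 fell, also near the 19.1% of all transcripts (Lgr4, Krt77 and the neural crest factor Sox10 at −0.82, SE 0.184, adjusted p = 0.00706). The relatives of Lrig1 did not pass, with Lrig2 at −0.10 and Lrig3 at 0.25.

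Likeness was measured as the Euclidean distance between log2 CPM profiles over the 4 libraries, each centred on its mean, among 92 listed follicle and pathway genes. The closest to Plet1 was the keratin Krt17 of the outer root sheath (distance 0.143, with 2 of all transcripts closer), which had 41718 and 47098 footprints in KO and 15379 and 13506 in WT. Lgr6 was closest to Fgfr2 (0.111, with 5 of all transcripts closer). Npnt, an extracellular matrix ligand made by bulge cells, was the closest to both Cd34 (0.284) and Nfatc1 (0.292); Lgr5 was closest to the Wnt effector Tcf7l2 (0.108), Sox9 to the transcription factor Foxc1 (0.191) and Lrig1 to the BMP receptor Bmpr1a (0.1). For those 5 markers, 65 to 138 of all transcripts were closer.

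**Figure D5:**
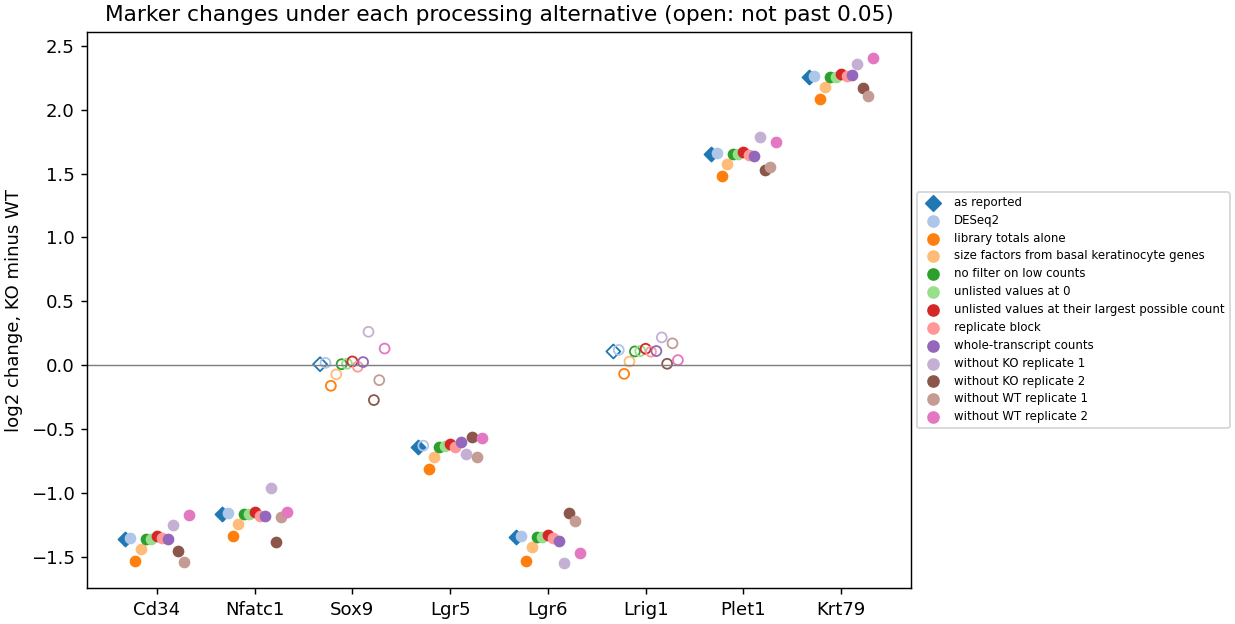
Change of the 8 tested markers, KO minus WT in log2, as reported (diamonds) and under 12 alternatives of scaling, filter, tool or library (circles), with open symbols where the adjusted p did not pass 0.05. Cd34, Nfatc1, Lgr6, Plet1 and Krt79 keep their side of 0 and pass in each, Lgr5 does not pass with DESeq2, and Sox9 and Lrig1 do not pass in any.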

How the data were processed

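Footprints were counted per transcript region in 4 ribosome profiling libraries of mouse epidermis, put into groups by the genotype each title states. The deposited raw counts cover the whole transcript, 5′ UTR, coding region and 3′ UTR of 1 UCSC transcript per row, per the file headers. The submitters' processing notes list TopHat2 2.0.10, Bowtie2 2.2.6 and CASAVA 1.8, and mm9 and hg19 as builds, with no role; the sources used here do not say how multiply matching reads were assigned. Of the 2 deposited tables, described as full-length and as short footprints, the contents are identical, so the length class is unknown. In all, 28 other per-sample columns were not used, nor were RNA-seq counts; 4 rows without a symbol stayed out of the named genes.

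Of 13167 transcripts, 11019 were listed in all 4 libraries, and 10953 had at least 10 counts in at least 2 libraries. These were tested with edgeR 4.0.16 in R 4.3.3 (quasi-likelihood, TMM factors of 0.926 and 0.957 for KO libraries, 1.09 and 1.04 for WT libraries; common biological coefficient of variation 11.1%). Counts differed between replicates by more than sampling noise (chi-square per transcript 5.47 in KO and 10 in WT). Region ratios were tested as the interaction of region and genotype with the library as a factor and TMM within each region. No molecular identifiers are described, so reads need not be independent molecules and depth gives counting precision only. The models were tested on simulated data. Alternatives were DESeq2 1.42.0, other scales, no filter, filled unlisted values, whole-transcript counts, a replicate block and each library left out, where the lone library of a genotype is assumed to vary like the other genotype's pair.

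The markers and gene lists were chosen with earlier results of these data known. From each list, up to 3 genes with the largest rise and 3 with the largest fall among those past the threshold were named, and for each marker its closest list gene; Krt78, Krt80, Lrig2, Lrig3, Bmp6, Rspo3, Ptch1, Wnt10b and Lef1 were named with their values already seen. Not every gene under this rule is reported here. No genome of the files' build was used, so genes are given by UCSC identifier.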

Additional observations from a re-analysis of the deposited data

How the results depend on the processing

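The markers' calls, 2 higher and 4 lower, were unchanged under scaling by basal keratinocyte genes or library totals, no filter, whole-transcript counts and each library left out; DESeq2 called 3 lower. Filling unlisted values left the calls of the 8 tested markers as they were. The filled KO counts of Lhx2 and Fgf18 are not measurements, so no call is given for these genes. Leaving out each library in turn gave ranges of −1.54 to −1.17 for Cd34, −1.38 to −0.95 for Nfatc1, −0.72 to −0.56 for Lgr5, −1.54 to −1.16 for Lgr6, 1.53 to 1.79 for Plet1, 2.11 to 2.41 for Krt79 and −1.80 to −1.47 for Pelo. Sox9 changed sign with library totals (−0.16), basal keratinocyte scaling (−0.070), and with a library left out (−0.27 to 0.26), and its 5′ UTR ratio ran from −0.41 to 0.21 with a library left out; Lrig1 did so with library totals (−0.066). The cause was not tested. DESeq2 called 1492 transcripts higher and 1177 lower, and 4 R-spondin and Wnt genes lower, a count of 5 to 7 with a library left out. At 5 counts, 30 3′ UTR ratios were higher and 15 lower. With a library left out, 5′ UTR ratios called were 5 to 19 higher and 8 to 35 lower, and 3′ UTR ratios 0 to 15 higher and 0 to 18 lower, and the cause was not tested. The labels number replicates in both genotypes. Across transcripts, which are not independent, the deviations of same-numbered libraries had r = −0.0087. A value over all transcripts cannot show whether the numbers mark a pairing, since sets of genes may still deviate together. With the number as a replicate block, 2212 transcripts were higher and 2125 lower, no marker's call changed, and Sox9 was at −0.010.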
